A study of Mus musculus with 20 samples.

Results

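NRF2 is the transcription factor that switches on antioxidant and detoxification genes, and the expression of NRF2, its partners and the antioxidant genes of the cell was measured by RNA sequencing in bone marrow-derived macrophages (BMDM), the macrophages that grow out of mouse marrow in M-CSF. The set was chosen by gene symbol with earlier results of these data known, so its counts beside those of all genes are descriptive. It has 44 members, of which 43 were among the 14456 genes of the deposited table, and Gsta4 was not analysed here. Of the 43 listed genes, 25 differed between macrophages kept in high and in normal glucose, 23 of them higher, against 7.74% of all genes tested, and 2 lower, against 5.53%. Between macrophages given exosomes of high glucose donors and those given exosomes of normal glucose donors no member passed, where 0.0139% of all genes did. That test left out the dates in the library titles. With the date as a block 1 member, Txnrd1, passed, and 22 genes in all in place of 2. All cells came from male C57BL/6J wild-type mice of 8 to 12 weeks and were sampled after 24 h, with 4 libraries in each of 5 groups. In the glucose experiment, the high glucose group was kept in 25 mM glucose and the normal glucose group in 5.5 mM glucose with 19.5 mM mannitol, a sugar alcohol that balances the osmotic load. In the exosome experiment, naive BMDM received BMDM–NG-exo, BMDM–HG-exo or PBS alone, the exosomes being the vesicles released by BMDM held in normal or in high glucose, at 2000000000 particles per ml, and the glucose of the recipients' medium is not given in the sources used here. The exosome libraries carry 4 dates, each found once in every group, and the study drew them from separate exosome preparations, while nothing in the labels says that the glucose libraries are separate cultures or animals, so that p-values there measure the spread between libraries, which may be technical.

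NRF2 is held at a low level by KEAP1, which hands it to a ubiquitin ligase for destruction. Oxidants and electrophiles change cysteines of KEAP1, NRF2 then escapes, pairs with a small MAF protein and binds antioxidant response elements in front of its target genes, where the repressor BACH1 can hold the same sites. The targets make glutathione, keep thioredoxin reduced, remove peroxides and quinones and regenerate NADPH. Much of this control acts on the NRF2 protein, which RNA sequencing does not measure.

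The libraries held 34016445 to 56310712 recovered reads, with a median of 43311931. All 43 listed members passed the filter of a mean normalized count of 10, which left 14425 genes in the glucose comparison. Macrophage markers were abundant in every library, with 8 of 8 listed, Csf1r and Cd14 among them. Their summed normalized count was 628420 to 702912 in normal glucose and 808014 to 878735 in high glucose, with 4 markers higher and 2 lower by the test used here. In the exosome experiment it was 794502 to 841224 with PBS, 717507 to 773976 with BMDM–NG-exo and 735061 to 759636 with BMDM–HG-exo, so that both exosome groups lay below PBS. Lyz2, the lysozyme of myeloid cells, made up 71.2% to 75.7% of this sum. Of the neutrophil markers 4 of 8 were listed, summing to 173 to 269.9 in normal and 154 to 202 in high glucose, with single values down to 0, and of the stromal and endothelial markers 3 of 6, summing to 126 to 199 and 163 to 248. None of the 6 dendritic cell, 6 B and T cell, 5 erythroid or 5 mast cell and basophil markers had a row. The part of these marker levels in the results was not tested, and in bulk RNA fewer cells of a type and less RNA per cell cannot be told apart.

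High glucose against normal glucose compares macrophages in 25 mM glucose with macrophages in 5.5 mM glucose and 19.5 mM mannitol. Glucose and mannitol changed together, so their parts cannot be told apart. The antioxidant genes moved mostly upwards, with 39 positive and 4 negative log2 fold changes (log2 changes, given with their standard error) and a median of 0.21, against a median of -0.003 over all 14425 genes tested. The test placed 23 members higher, against 7.74% of all genes, and 2 members lower, against 5.53% of all genes (limma on log2 normalized counts, Benjamini-Hochberg adjusted p under 0.05 over all genes tested). The 4 high glucose libraries lay above all 4 normal glucose libraries for 21 members, compared with 9.18% of all genes, and below them for 2 members, compared with 7.11%. Over all genes 1116 were higher and 798 lower, and quantile normalization turned this split to 789 higher and 872 lower while 19 members remained among the higher and both lower members stayed lower. The 4 that lost the call then were Bach1, Gpx1, Prdx5 and Gstm1, each with a change of at most 0.17 on the log2 scale.

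**Figure D1:**
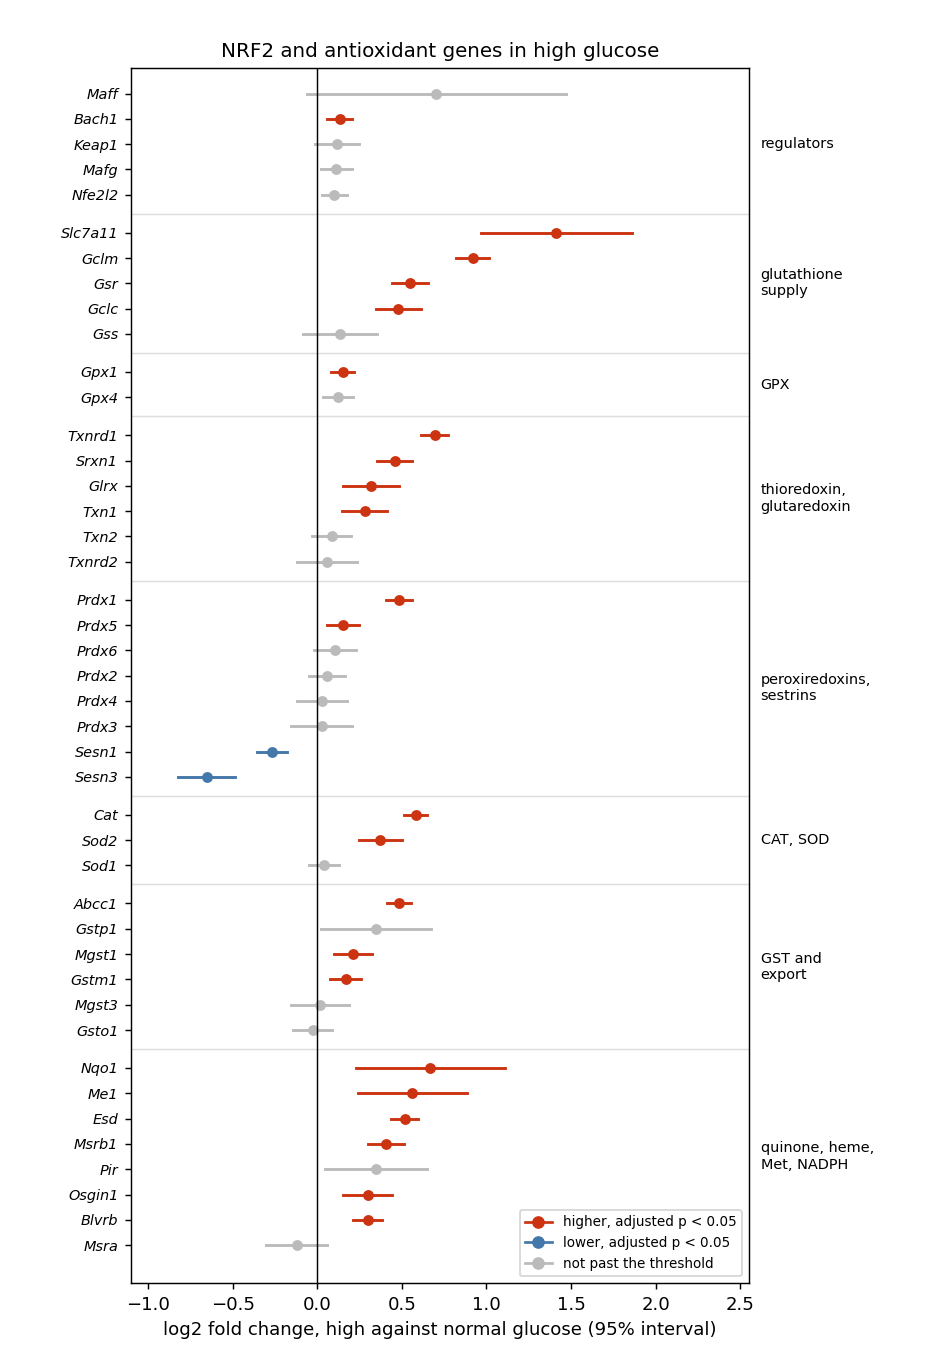
Log2 fold change of 43 antioxidant genes in high against normal glucose (x axis, log2 scale, positive when higher in high glucose), with points for the estimate and lines for its 95% interval, n = 4 libraries per group. Genes are grouped by role: 23 points in red passed the test upwards, 2 in blue passed it downwards (Sesn1 and Sesn3), and the 18 in grey did not pass.

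Of the 5 regulators, 1 rose and none fell. Nfe2l2, which encodes NRF2 (ENSMUSG00000015839, chr2:75675513-75704641, minus strand, GRCm38), had normalized counts of 10418, 10146, 10094 and 10783 under normal glucose and of 10859, 11543, 10988 and 11059 under high glucose. The ranges did not overlap, yet the gap was narrow, at a log2 change of 0.10 ± 0.036 (SE), and the adjusted p of 0.0566 by limma missed the threshold. It fell to 0.046 when only genes with a mean of at least 50 were tested, to 0.035 with DESeq2 and to 0.031 without normal glucose library 6. Nfe2l2 did not pass in 9 of the 11 other settings or in 7 of the 8 fits that left out 1 library. Among the other settings its log2 change was as low as 0.044.

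Keap1, the sensor that marks NRF2 for destruction, gave 1814, 1593, 1843 and 1443 under normal and 1901, 1776, 1783 and 1769 under high glucose. These groups overlapped, and the log2 change of 0.12 ± 0.064 had an adjusted p of 0.255 by limma. Bach1, the repressor of the same sites, was the only regulator that rose, from 8488, 8808, 8762 and 8365 to 9472, 9287, 9726 and 9287. All high glucose values stood above the normal glucose values, the log2 fold change was 0.13 ± 0.036 with an adjusted p of 0.0098 (limma), and it lost the call without high glucose library 4 (adjusted p = 0.051).

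Mafg, a small MAF partner of NRF2, counted 4238, 3814, 4088 and 3759 under normal and 4440.4, 4172, 4285 and 4269 under high glucose. The groups overlapped in 1 normal glucose library, with a log2 change of 0.11 ± 0.045 and an adjusted p of 0.0995 by limma that dropped to 0.028 without normal glucose library 1. Mafg shares 124 exon bases with Sirt7 on the same strand, whose mean normalized count was 1986.5. Maff, the other small MAF among the members, was scarce, at 27.9, 20.3, 13.8 and 26.0 under normal and 31.8, 27.5, 49.0 and 35.9 under high glucose. Its groups overlapped slightly, and its log2 change of 0.70 ± 0.38 came with an adjusted p of 0.241 by limma.

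Glutathione supply held the largest changes, with 4 of its 5 members higher. Slc7a11, the cystine importer xCT that feeds cysteine into glutathione, had counts of 52.9, 103, 73.5 and 54.5 under normal glucose and of 136, 197, 181 and 236 under high glucose. Every high glucose library was above every normal one, and the rise was 2.66-fold (log2 change 1.41 ± 0.22, adjusted p = 1.2e-05, limma). It was also the least abundant member per exon length, at 10.3 normalized counts per kilobase on average over the 20 libraries, compared with 10548 for Gpx1, the most abundant.

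Gclm and Gclc encode the modifier and the catalytic subunit of glutamate-cysteine ligase, the rate-limiting enzyme of glutathione synthesis. Gclm (ENSMUSG00000028124, chr3:122245557-122270732, plus strand, GRCm38) had 3107, 3177, 2942 and 3146 under normal glucose and 5277, 5727, 6226 and 6196 under high glucose. The lowest high glucose library stood far above the highest normal glucose library, and the rise was 1.89-fold (log2 change 0.92 ± 0.048, adjusted p = 1.4e-16, limma). Its exons share 244 bases with the pseudogene Gm6061 on the same strand, whose mean normalized count was 13.7. Gclc rose less, from 1128, 1267, 1306 and 1144 to 1692, 1517, 1828 and 1716. Its groups did not overlap either, with a log2 change of 0.48 ± 0.066 (adjusted p = 1.33e-06, limma).

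Gsr, glutathione reductase, which recycles oxidized glutathione with NADPH, went from 2255, 2171, 2383 and 2420.2 under normal glucose to 3070.2, 3401, 3637 and 3411 under high glucose. The groups were well apart (log2 change 0.55 ± 0.052, adjusted p = 8.11e-10, limma). Gss, glutathione synthetase, the second enzyme of the synthesis, had means of 436 ± 44.8 and 481 ± 67.9 (SD, n = 4) and did not pass (log2 change 0.14 ± 0.11, adjusted p = 0.466, limma).

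The glutathione peroxidases spend glutathione on peroxides, and 1 of the 2 rose. Gpx1, the main cytosolic glutathione peroxidase, counted 14114, 13759, 14023 and 14743 under normal and 15604, 15485, 16370.1 and 15359.8 under high glucose. High glucose was higher in every library, but by a log2 change of only 0.15 ± 0.035 (adjusted p = 0.00246, limma). Gpx4, which reduces lipid peroxides in membranes, had a log2 change of 0.12 ± 0.045 and an adjusted p of 0.0611 by limma, which passed without normal glucose library 1 (0.039) or 6 (0.040). It did not pass in 10 of the 11 other settings or in 6 of the 8 fits that left out 1 library. Among the other settings its log2 change was as low as 0.052.

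In the thioredoxin system the cytosolic members rose and the mitochondrial ones did not pass. Txnrd1, the cytosolic reductase that keeps thioredoxin active (ENSMUSG00000020250, chr10:82833951-82897712, plus strand, GRCm38), had 7589, 6928, 7441 and 7457 under normal glucose and 11213, 11880.1, 12129 and 12396 under high glucose. The lowest high glucose value was far above the highest normal glucose value, a rise of 1.62-fold (log2 change 0.69 ± 0.039, adjusted p = 8.24e-16, limma). Txn1, cytosolic thioredoxin, rose from a mean of 1472 ± 143 to 1784 ± 131 (SD, n = 4; log2 change 0.28 ± 0.066, adjusted p = 0.00285, limma), with groups that touched. Their mitochondrial counterparts Txnrd2 and Txn2 had log2 changes of 0.056 ± 0.087 and 0.085 ± 0.057 (adjusted p = 0.746 and 0.375, limma). The difference between the cytosolic and the mitochondrial genes was itself not tested.

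Srxn1, sulfiredoxin, which repairs over-oxidized peroxiredoxins, had 2861, 2719, 2888 and 2630.5 under normal and 3616, 3584, 4129 and 3922 under high glucose. The groups were apart (log2 change 0.46 ± 0.050, adjusted p = 1.6e-08, limma). Glrx, glutaredoxin, which removes glutathione from proteins, had 691, 592, 758 and 679 under normal and 808, 881, 856 and 830.3 under high glucose. All high glucose libraries were above the normal ones (log2 change 0.32 ± 0.081, adjusted p = 0.00647, limma). Glrx, like Txn1, kept its call in 9 of the 11 other settings.

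Of the 6 peroxiredoxins, which destroy hydrogen peroxide, most of them with electrons from thioredoxin, Prdx1 and Prdx5 rose. Prdx1, the abundant cytosolic form, had 20502, 21700.4, 19600.1 and 19815 under normal glucose and 26164, 28957, 29266 and 29729 under high glucose. No library crossed between groups, and the rise was 1.4-fold (log2 change 0.48 ± 0.038, adjusted p = 7.65e-12, limma). Prdx5 rose by a log2 change of 0.16 ± 0.046 (adjusted p = 0.0211, limma) with overlapping groups, and missed the threshold without normal glucose library 6 or without high glucose library 1 or 4 (adjusted p 0.060 to 0.085). Prdx2, Prdx3, Prdx4 and Prdx6 had log2 changes of 0.056, 0.026, 0.028 and 0.11, none past the test.

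Both sestrins among the members went the other way. Sestrins are stress-responsive inhibitors of the growth kinase mTORC1 and were once described as helpers of peroxiredoxin recovery. Sesn3 had 887, 867, 880.3 and 803 under normal glucose and 615, 516, 539 and 521 under high glucose. All high glucose libraries were below all normal ones, at 0.637 times the normal glucose level (log2 change -0.65 ± 0.083, adjusted p = 3.22e-07, limma). Sesn1 had 6311, 6509.8, 7115 and 7359 under normal and 5747, 5574, 5890.4 and 5444 under high glucose. It too was lower without overlap (log2 change -0.27 ± 0.044, adjusted p = 3.62e-05, limma).

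Cat, catalase, which splits hydrogen peroxide in peroxisomes (ENSMUSG00000027187, chr2:103453849-103485160, minus strand, GRCm38), had 21246, 21128, 21155 and 22777 under normal glucose and 30580.1, 32715, 33120.4 and 32702 under high glucose. The groups were far apart, a rise of 1.5-fold (log2 change 0.58 ± 0.034, adjusted p = 3.37e-15, limma). Sod2, the mitochondrial superoxide dismutase, went from 1492, 1527, 1487 and 1476 to 1685, 1975, 1991 and 2126. High glucose library 1 was the lowest of its group and still above the normal glucose libraries (log2 change 0.37 ± 0.061, adjusted p = 2.87e-05, limma). Sod1, the cytosolic enzyme, had means of 6291 ± 382 and 6458 ± 323 (SD, n = 4), a log2 change of 0.039 ± 0.044 that did not pass.

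**Figure D2:**
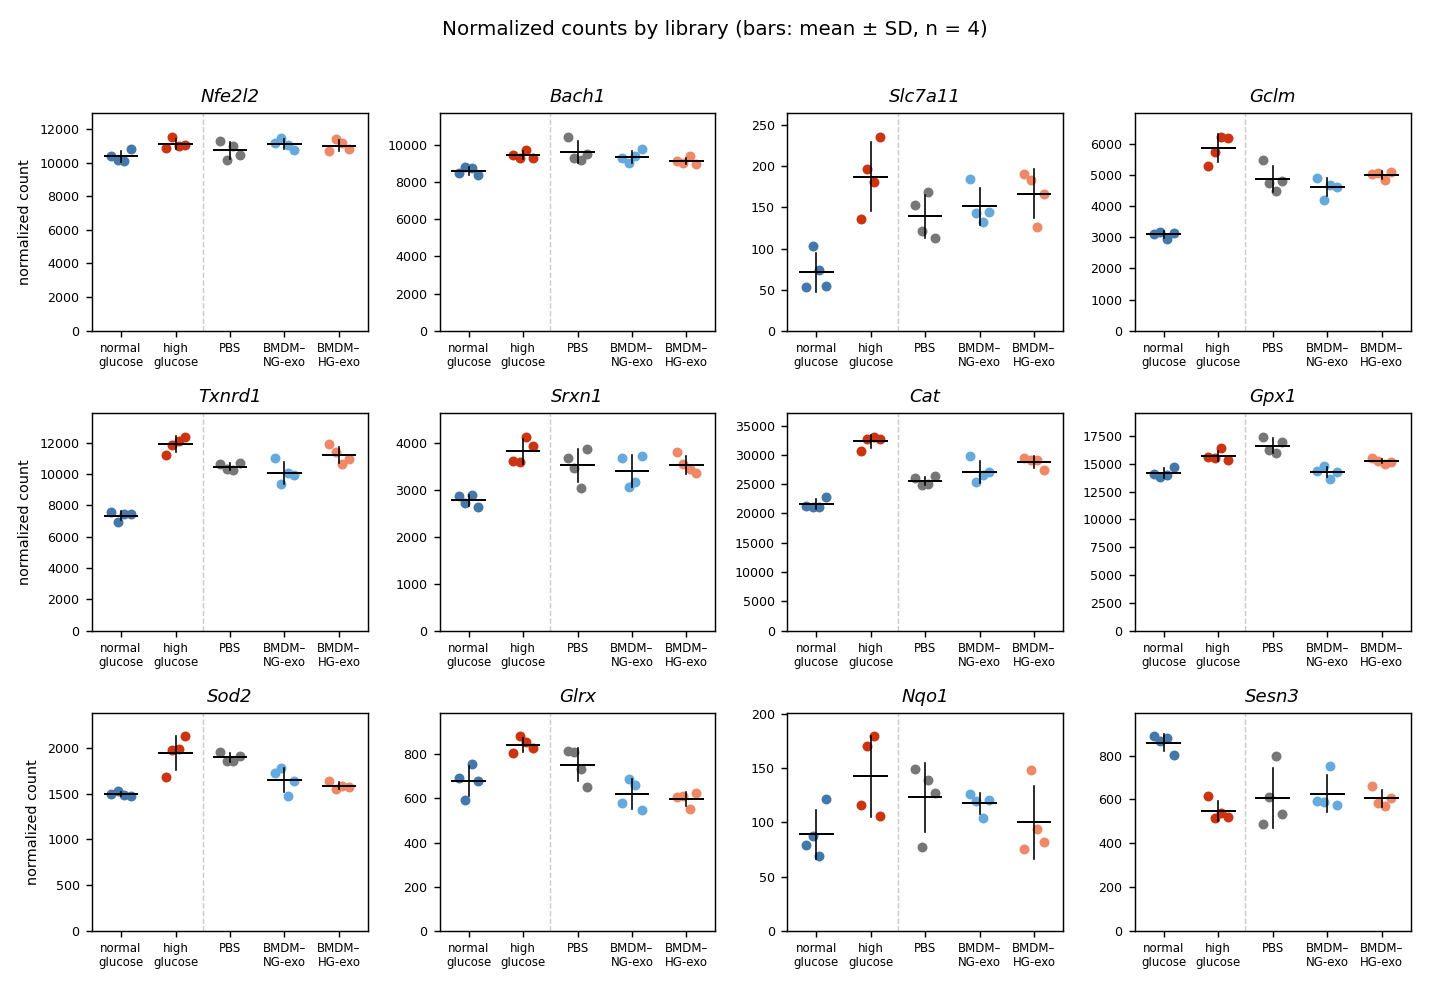
Normalized counts (y axes, from 0) of 12 antioxidant genes in every library of the 5 groups, with horizontal bars for the mean and vertical bars for the SD, n = 4. Gclm, Txnrd1 and Cat show high glucose points clear of the normal glucose points with the means of the exosome experiment in between, and Sesn3 is highest in normal glucose.

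Among the glutathione transferases and exporters 3 of the 6 listed members rose. Abcc1, the pump MRP1 that exports glutathione and its conjugates, had 10194, 9759, 9676 and 9913 under normal glucose and 13607, 13672, 13969 and 14067 under high glucose. The values within each group were close together and the groups were wide apart (log2 change 0.48 ± 0.034, adjusted p = 6.24e-13, limma). Mgst1, a membrane-bound transferase, rose by 0.21 ± 0.055 and Gstm1, a cytosolic one, by 0.17 ± 0.045 on the log2 scale (adjusted p = 0.00781 and 0.00883, limma), and Mgst1 missed the threshold without high glucose library 6 (adjusted p = 0.066). Gstp1, Gsto1 and Mgst3 did not pass, with log2 changes of 0.35, -0.025 and 0.016, and Gstp1, whose reads can be hard to tell from those of its neighbouring copy Gstp2, passed by limma without high glucose library 1 (adjusted p = 0.046).

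Nqo1, the quinone reductase often read as the reporter of NRF2 activity, was scarce in these cells. It had 78.9, 87.5, 68.9 and 121 under normal glucose and 116, 171, 179.5 and 106 under high glucose. Normal glucose library 6 was above 2 of the high glucose libraries, so that the groups overlapped and the log2 change of 0.67 ± 0.22 passed only just (adjusted p = 0.0354, limma). It missed the threshold in 4 of the 8 fits that left out 1 library, those without normal glucose 1 or 5 or high glucose 2 or 4 (adjusted p 0.067 to 0.158).

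Me1, malic enzyme, a cytosolic source of NADPH, had 138, 205, 174 and 225 under normal and 222, 324, 241 and 307 under high glucose. Normal glucose library 6 reached into the high glucose range (log2 change 0.56 ± 0.16, adjusted p = 0.0138, limma), and the call was lost without normal glucose 1 or high glucose 2 or 6 (adjusted p 0.062 to 0.076). Esd, esterase D, which completes the glutathione-dependent removal of formaldehyde, was abundant and had 8777, 9115, 9106 and 9637 under normal and 12567, 12646, 13936 and 13291 under high glucose. These groups were well apart (log2 change 0.52 ± 0.039, adjusted p = 2.11e-12, limma).

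Msrb1, a selenoprotein that repairs oxidized methionine, had 2172, 2087, 2155 and 2290.4 under normal and 2694, 3005, 3039.8 and 2813 under high glucose. All high glucose libraries were higher (log2 change 0.41 ± 0.051, adjusted p = 2.97e-07, limma). Msra, which repairs the other stereoisomer of oxidized methionine, had a log2 change of -0.12 ± 0.089 and did not pass. Blvrb, biliverdin reductase B of heme breakdown, and Osgin1, an oxidative stress-induced growth inhibitor, both rose by 0.30 on the log2 scale (SE 0.042 and 0.072, adjusted p = 2.34e-06 and 0.00357, limma), while Pir, an iron-containing nuclear protein, had 0.35 ± 0.15 and did not pass (adjusted p = 0.126, limma), except without high glucose library 1 (0.043).

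Stretches of 3 promoters of genes that rose are shown because they carry the core letters of an antioxidant response element, TGACNNNGC, read on both strands in the 250 bases before the start of the gene. The sequences are those of RefSeq on build GRCm38.p6, plus strand, with the motif in capitals. On the printed strand it appears as its reverse complement, GCNNNGTCA.
Gclm, chr3:122245393-122245461: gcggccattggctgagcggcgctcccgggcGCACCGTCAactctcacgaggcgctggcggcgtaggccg
Txnrd1, chr10:82859084-82859152: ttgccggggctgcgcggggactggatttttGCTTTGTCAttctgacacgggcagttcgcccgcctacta
Prdx1, chr4:116685436-116685504: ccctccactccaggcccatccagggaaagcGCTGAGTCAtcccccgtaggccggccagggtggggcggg

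The Txnrd1 stretch lies in an intron of the GENCODE gene, before the RefSeq start, and the other stretches lie before the gene. The letters of the 3 free positions differ between the genes, and in Prdx1 the run also contains TGAGTCA, the letters of an AP-1 site. Of the 43 listed members, 38 had a promoter window, with none for Gclc, Gsr, Abcc1, Prdx6 and Msra. Some genes have more than 1 window. The motif was in 9 of the 38 members (23.7%), compared with 11.52% of all 27025 genes with a window and 14.04% of the genes tested that had one, and by window in 9 of 51 (17.65%), compared with 10.16% of all 32851 windows. It was in 4 of the 20 risen members with a window (20.0%), the genes above and Mgst1, and in 5 of the 18 others (27.8%), which were Nfe2l2, Maff, Mafg, Sod1 and Pir. Over all genes higher in high glucose it was in 14.42%. A match gives the letters only, and a window without one says nothing about distant elements.

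BMDM–HG-exo against BMDM–NG-exo asks whether the high or normal glucose medium of the donor cells alters what their exosomes do to a recipient. None of the 43 members passed (adjusted p under 0.05 and a log2 change of 0.15 or more in either direction, limma), against 0.0139% of all genes. An unadjusted p under 0.05 by limma was found for 7 of the 43, a larger share than the 942 of all 14413 genes. Of these, Txnrd1, Gclc, Gpx1, Gclm, Cat and Esd were higher with BMDM–HG-exo and Prdx4 was lower. Over all members 23 log2 changes were positive and 20 negative. By edgeR and by DESeq2 on the recovered reads none passed either. The median log2 change of the members was 0.011, against -0.001 over all genes.

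Txnrd1 came closest. It had 10624, 10297, 10241 and 10699 with PBS, 11043, 9346, 10043 and 9948 with BMDM–NG-exo and 11889, 11378, 10656 and 10967 with BMDM–HG-exo. BMDM–HG-exo was the highest on average, but its range overlapped that of BMDM–NG-exo, where library 1 was the highest (log2 change 0.15 ± 0.041, 95% interval 0.071 to 0.24, adjusted p = 0.283, limma). With the date of the library as a block its adjusted p was 0.047, and 22 genes passed in all in place of 2. Without BMDM–NG-exo library 1 the log2 fold change was 0.20 and the adjusted p 0.042.

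Gclc had 1331, 1313, 1667 and 1508 with BMDM–NG-exo and 1748, 1675, 1657 and 1750.3 with BMDM–HG-exo, and 1406, 1539.9, 1629 and 1679 with PBS. The BMDM–HG-exo libraries lay close together, around the highest values of the other groups (log2 change 0.24 ± 0.069, 95% interval 0.10 to 0.38, adjusted p = 0.409, limma). Gclm and Slc7a11, which led in high glucose, had 0.12 ± 0.050 (adjusted p = 0.656) and 0.13 ± 0.19 (adjusted p = 0.957) by limma. The 95% interval of Gclm, 0.021 to 0.23, ended well below its change in high glucose.

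Against PBS, the members that passed with either exosome were Gpx1, Sod2 and Glrx, which fell, and Cat, which rose, and none of the 4 passed between the exosome groups. The summed macrophage markers were also lower than PBS in both exosome groups, and their part in these differences was not tested. With BMDM–NG-exo 1 of 43 members, Gpx1, passed, against 3% of all genes. Its counts were 17438, 16198, 15968 and 16920.0 with PBS, 14386, 14762, 13653 and 14263 with BMDM–NG-exo and 15516, 15277, 14999.5 and 15156 with BMDM–HG-exo. All exosome-treated libraries were below all PBS libraries, and BMDM–HG-exo lay between the other groups. The log2 fold change was -0.22 ± 0.034 with BMDM–NG-exo (adjusted p = 4.78e-05, limma) and -0.13 ± 0.034 with BMDM–HG-exo, where the adjusted p of 0.0196 passed but the fold limit was missed. The comparison of the exosomes themselves, at 0.10 ± 0.034, did not pass (adjusted p = 0.583, limma).

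With BMDM–HG-exo 3 of 43 members passed against PBS, compared with 4.84% of all genes. Sod2 had 1959, 1861, 1857 and 1913 with PBS, 1723, 1782, 1476 and 1634 with BMDM–NG-exo and 1636, 1553, 1585 and 1575 with BMDM–HG-exo. Both exosome groups were below PBS in every library, with a log2 change of -0.26 ± 0.059 for BMDM–HG-exo (adjusted p = 0.0043, limma) and of -0.20 ± 0.059 for BMDM–NG-exo (adjusted p = 0.0509, limma). The latter passed with the date block, at an adjusted p of 0.033, which gave 2 members in place of 1.

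Cat had 25973, 24879, 25061 and 26308 with PBS, 29735, 25288, 26555 and 27018 with BMDM–NG-exo and 29489.5, 29180.5, 29142 and 27346 with BMDM–HG-exo. BMDM–HG-exo was above PBS in every library, and BMDM–NG-exo spread across both (log2 change 0.17 ± 0.037 for BMDM–HG-exo, adjusted p = 0.00202, limma). Glrx had 817, 809.8, 734 and 654 with PBS, 579.5, 689.9, 662 and 547 with BMDM–NG-exo and 605, 611, 551 and 627 with BMDM–HG-exo. All BMDM–HG-exo libraries were below all PBS libraries, and the BMDM–NG-exo range reached into that of PBS (log2 change -0.33 ± 0.093 for BMDM–HG-exo, adjusted p = 0.0274, limma, and -0.28 ± 0.093 for BMDM–NG-exo, adjusted p = 0.102). The Glrx call was lost without PBS library 1 or 2 or BMDM–HG-exo library 2 or 3 (limma, adjusted p 0.052 to 0.116), and Gstm1, at 0.16 ± 0.053, joined with the date block (adjusted p = 0.014). The 2 comparisons share the PBS libraries.

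Against BMDM–NG-exo and PBS combined, the contrast the study drew, BMDM–HG-exo changed none of the 43 members, against 0.201% of all genes, with 5 at an unadjusted p under 0.05, as had 1511 of all 14413 genes, and none by edgeR or DESeq2. Cat had the smallest p (log2 change 0.13 ± 0.038, adjusted p = 0.142, limma), and passed without BMDM–NG-exo library 1 (log2 fold change 0.15, adjusted p = 0.023).

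**Figure D3:**
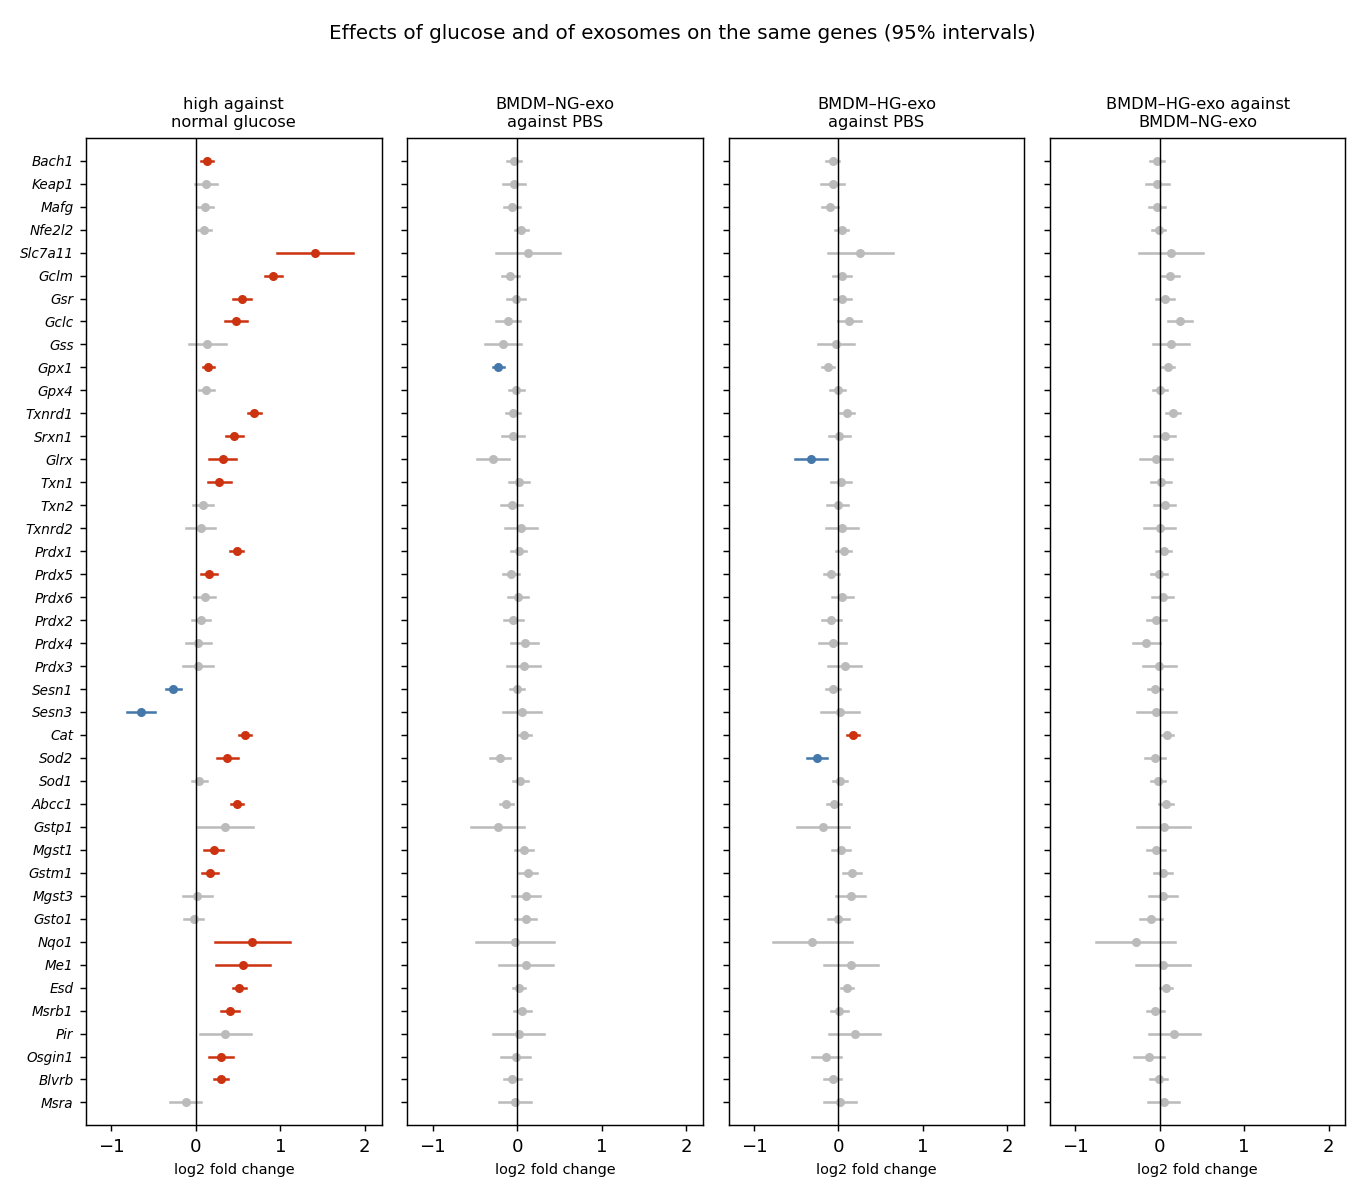
Log2 fold changes (x axes, with 95% intervals) of 42 antioxidant genes in 4 comparisons, n = 4 libraries per group, red where a gene passed the test upwards, blue downwards and grey where it did not pass. Maff, whose intervals are the widest, is left out; the panels against PBS share the PBS libraries and the last panel holds no coloured point.

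Whether the glucose effect differed from the effect of donor glucose through exosomes was tested directly over all 20 libraries. The signed difference was high against normal glucose minus BMDM–HG-exo against BMDM–NG-exo. All groups shared a variance estimate, and the spread between the glucose libraries may be technical. The difference was positive for 14 members, against 3.27% of all genes, and negative for 2 members, against 1.47%, which were Sesn1 and Sesn3 (Sesn3 -0.61 ± 0.15, adjusted p = 0.00848, limma). Over all genes 472 were positive and 213 negative, and 322 and 290 with quantile normalization. The largest positive differences that passed were Slc7a11 at 1.28 ± 0.29 (adjusted p = 0.00481), Gclm at 0.79 ± 0.074 (adjusted p = 4.15e-10) and Txnrd1 at 0.54 ± 0.059 (adjusted p = 1.82e-08, limma). The other risen members that differed were Cat, Esd, Abcc1, Prdx1, Msrb1, Gsr, Sod2, Srxn1, Blvrb, Osgin1 and Mgst1. For Gclc the difference was 0.24 ± 0.10 (adjusted p = 0.177) and for Nqo1 0.95 ± 0.33 (adjusted p = 0.0915), neither past the threshold by limma.

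Across the 5 groups, the mean of normal glucose was the lowest for 22 of the 23 risen members (95.7%), compared with 75.1% of all genes that rose in high glucose. High glucose was the highest for 15 (65.2%, compared with 56.1%), and the means of all 3 groups of the exosome experiment lay between the glucose groups for 14 (60.9%, compared with 33.2%). For Gclm the 12 libraries of the exosome experiment ran from 4205 to 5479.8, above the highest normal glucose value, and for Txnrd1 from 9346 to 11889, again above it. The exosome experiment and the glucose experiment differ in more than the treatment, and medium, culture and day cannot be told apart from the groups here.

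**Figure D4:**
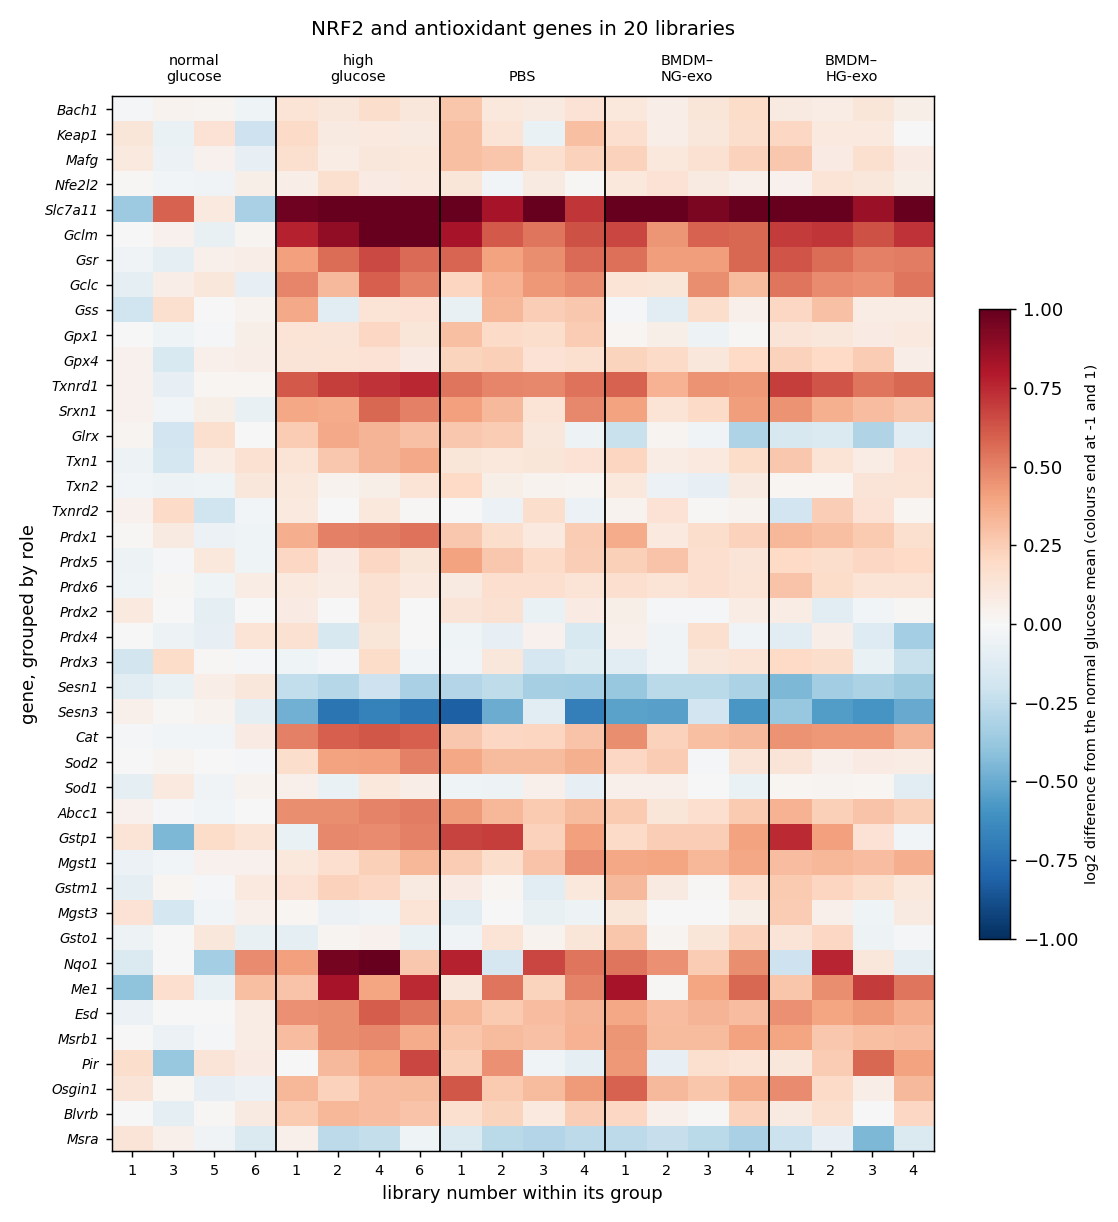
Log2 difference of each of 42 antioxidant genes (rows, grouped by role, Maff left out) from its normal glucose mean in 20 libraries (columns, 5 groups of 4), with red above and blue below and colours ending at -1 and 1. Slc7a11, Gclm, Txnrd1 and Cat are red in all high glucose libraries and in the 3 groups of the exosome experiment, and Sesn1 and Sesn3 are blue in the same columns.

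Of 60 other genes of the pathway, 55 had a row, and 16 were higher and 3 lower in high glucose, with a median log2 change of 0.093, where 7.74% of all genes were higher and 5.53% lower. Among the 24 other NRF2 targets 14 were higher and 1 lower, with a median of 0.21. These lists too were chosen with earlier results of these data known. Hmox1, heme oxygenase, which opens the heme ring, rose from 8209 ± 431 to 12132 ± 689 (SD, n = 4; log2 change 0.56 ± 0.041, adjusted p = 1.39e-12, limma). Pgd, the second NADPH-producing enzyme of the pentose phosphate pathway, had a log2 change of 0.49 ± 0.037, adjusted p = 2.5e-12, and Idh1, the cytosolic isocitrate dehydrogenase that also makes NADPH, of 0.46 ± 0.040, adjusted p = 7.1e-11 (limma). Slc3a2, the heavy chain that pairs with Slc7a11 and other transporters, was the 1 that fell, named here after its value was seen (-0.14 ± 0.044, adjusted p = 0.0314, limma).

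Among 8 other regulators only Sqstm1 rose, the autophagy adaptor p62 that can pull KEAP1 away from NRF2 (0.33 ± 0.034, adjusted p = 3.18e-09, limma). Among the 23 listed other redox enzymes 1 was higher and 2 were lower, against 7.74% and 5.53% of all genes. Txnip, the thioredoxin-binding protein whose transcription follows glucose, rose (0.25 ± 0.033, adjusted p = 9.57e-07, limma), and Gstt2, a theta-class transferase (-0.60 ± 0.11, adjusted p = 7.75e-05), and Gpx3, the secreted glutathione peroxidase (-0.27 ± 0.067, adjusted p = 0.00485), fell. None of the 55 passed between the exosome groups, with 5 at an unadjusted p under 0.05 by limma, and 1, Trim16, also named after its values were seen, was higher with either exosome against PBS.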

How the data were processed

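RNA of 20 BMDM libraries, 4 in each of 5 groups, was sequenced as stranded, ribosome-depleted total RNA. The authors used STAR for alignment and featureCounts for gene counts, and deposited 1 table of normalized counts, a signal in which each count is divided by its library's DESeq2 size factor; the labels give build GRCm38, and the annotation used for counting and the treatment of reads shared by near-identical copies are not given in the sources used here. Of 14456 Ensembl IDs, 14421 were named from GENCODE M21. The smallest step of a column was taken as the worth of 1 read, and division by it gave recovered reads that were whole within 0.01.

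Groups followed the labels. Log2(normalized count + 1) was compared with limma 3.58.1 (R 4.3.3, moderated test with trend, two-sided) over all genes with a mean of at least 10 in the libraries fitted, with Benjamini-Hochberg adjustment. Calls needed an adjusted p under 0.05 and, for exosomes, a log2 change of at least 0.15, as in the study. Fold changes are on the log2(value + 1) scale, which understates the change of low genes. Each library counted as 1 sample. Replicates differed beyond sampling noise (chi-square per degree of freedom 5.19 to 41.9 over 30 pairs), which does not show that they are separate cultures.

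The exosome libraries are paired by the dates in their titles; deviations from the group means correlated by 0.012 on average for the same date (12 pairs) and by -0.004 for different dates (36 pairs). Alternatives covered the pseudocount, filter, scaling, trend, date block, edgeR 4.0.16 and DESeq2 1.42.0 on recovered reads, a joint fit, and leaving out each library.

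The members and the other gene lists were chosen with earlier results of these data known. Values in every library are given for the regulators, Nqo1, the members called in high glucose with the largest changes (up to 16), those called with exosomes and the 3 with the smallest p between exosomes; Sesn1 was added after its values were seen. Of the other pathway genes, the 3 with the largest called changes per list are named. Promoters were scanned with Python 3.11.15.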

Additional observations from a re-analysis of the deposited data

Results flagged for a closer look

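In 5 of the 110 groups of 4 libraries examined, 1 library stood apart from the other 3 by more than Dixon's 95% limit, where chance alone gives about 5.5, or 1 in 20 groups. Keap1 was 1901 in high glucose library 1, above the 1769 to 1783 of the others. Sesn3 was 750.4 in BMDM–NG-exo library 3, above 573 to 592. Cat stood apart in 3 groups: it was 22777 in normal glucose library 6, above 21128 to 21246 in the others, 30580.1 in high glucose library 1, below 32702 to 33120.4, and 27346 in BMDM–HG-exo library 4, below 29142 to 29489.5. For Cat the glucose groups remained apart in every library, since the lowest high glucose value was above the highest normal glucose value.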

How the results depend on the processing

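Of the 25 members called in high glucose, 14 kept the call in each of the 11 other settings and 20 whichever of the 8 libraries was omitted, and no change turned its direction in any of them. The call was lost in at least 1 of those settings for Bach1, Gpx1, Txn1, Glrx, Prdx5, Sesn1, Gstm1, Mgst1, Nqo1, Me1 and Osgin1. Without limma's trend, 14 members were higher in high glucose in place of 23, 1 lower in place of 2, 1 changed with BMDM–HG-exo against PBS in place of 3, and 10 differed between the glucose and exosome effects in place of 16. Sod2 made a second call for BMDM–NG-exo against PBS, 2 in place of 1, with a pseudocount of 8, with a mean of at least 50, with TMM factors and with DESeq2. Fits that left out 1 library gave 20 to 24 members higher and 2 lower in high glucose, 0 to 1 between exosomes, 1 to 2 and 2 to 4 for BMDM–NG-exo and BMDM–HG-exo against PBS, 0 to 1 against the combined controls, and 13 to 17 for the difference.

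With the replicate number as a block, 14 members were higher in high glucose; these libraries share the numbers 1 and 6 only, and nothing says that a number marks a shared culture. The difference between the glucose and exosome effects then passed for 11 members in place of 16. In the exosome experiment the date block gave 1 member between exosomes in place of 0 and 2 for BMDM–NG-exo against PBS in place of 1, and changed no other call beyond Gstm1.

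Over all genes, calls in high glucose were 1914, against 654 without the trend and 788 with the block. Between exosomes there were 2, against 22 with DESeq2 and 22 with the block; against the combined controls 29, against 127 with DESeq2, 322 in the joint fit and 1 without the trend. Against PBS, 432 became 95 for BMDM–NG-exo and 698 became 295 for BMDM–HG-exo without the trend, and 685 differences became 324 without it and 296 with the block. The cause of these shifts was not tested. Depth limits Maff, Nqo1 and Slc7a11 most, with at most 52, 187 and 231 recovered reads in a library.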
